A study of Mus musculus with 20 samples.

Results

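The expression of 10 genes that mark or instruct the supporting cells of the inner ear was followed in the mouse utricle, the organ of the vestibule that senses linear acceleration and gravity. They are the transcription factors *Sox2* and *Prox1*, the Notch ligand *Jag1*, the receptors *Notch1* and *Notch2*, the Notch-modifying enzyme *Lfng*, and the target genes *Hes1*, *Hes5*, *Hey1* and *Hey2*. They were taken by name from a table of 25655 genes, and all 10 were found in it. Female C57BL/6J mice were operated on at 8 weeks of age and received a pellet made to release its content over 60 days. In the sham + v group the ovaries were left in place and the pellet held vehicle, while in the OVX + v group the mice were ovariectomized and received the same vehicle. Ovariectomized mice of the OVX + E2 group received 50 µg of estradiol, and those of the OVX + RAL group 2.4 mg of raloxifene, a selective modulator of the estrogen receptor. Utricles were taken 4 weeks after the operation, and 5 libraries were made in each group, each from 1 ng of total RNA. The labels name no transgene or mutant allele. The other 3 groups were each compared with the OVX + v group, so that the 3 comparisons share its 5 libraries.

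The sensory patch of the utricle consists of hair cells, each surrounded by supporting cells that hold it in place and secrete the matrix below the otoconia. Notch signaling runs between touching cells: a ligand such as Jag1 on one cell binds a Notch receptor on its neighbour, the receptor is cut by ADAM10 and then by γ-secretase, and its freed intracellular part joins the DNA-binding protein RBPJ to switch on repressors of the Hes and Hey families. In the inner ear this pathway first marks out the sensory patches, together with Sox2, and later keeps supporting cells from becoming hair cells.

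The libraries held between 1123053 counts (OVX + E2 library 14) and 2081747 counts (OVX + RAL library 20), and those of the OVX + E2 group held 1123053 to 1507667 counts, with 4 of its 5 libraries smaller than any library of the other groups. A gene with 3 counts, taken here as detected, stood at 1.44 counts per 1000000 counts of the library (CPM) in the largest library and 2.67 CPM in the smallest. The list of 22 supporting cell genes summed to between 4873 and 8175 CPM, and the otogelin gene *Otog*, which encodes a protein of the otoconial membrane, was present in all 20 libraries at 1049 to 4099 CPM. The 18 hair cell genes summed to 1334 to 2868 CPM, led by *Myo6* and *Ush1c*, so that RNA of both cell types was present, although the early hair cell factor *Atoh1* reached 3 counts in 1 library and the progenitor marker *Lgr5* in 0. RNA of other cells was in the samples as well. Genes of Schwann cells summed to 7959.7 to 22289 CPM, largely through *S100b* (mean 8682 CPM), which was lower in the OVX + E2 than in the OVX + v group by a log2 difference of -0.55 (SE 0.08, adjusted p = 5.16e-08) and was the only gene of the marker lists past that threshold in a comparison with OVX + v. Those of dark cells, led by *Atp1b2* and *Slc12a2*, summed to 1136 to 3487 CPM, those of melanocytes, led by *Dct* and *Pmel*, to 328 to 1621 CPM, and those of blood endothelium, led by *Kdr* and *Flt1*, to 139.9 to 673 CPM. Lower sums came from macrophages (*C1qc*, *C1qb*; 39.2 to 369.7 CPM), pericytes and smooth muscle (*Rgs5*, *Pdgfrb*; 25.8 to 369 CPM) and lymphatic endothelium (*Pdpn*, *Lyve1*; 14.03 to 275 CPM). OVX + RAL libraries 16 and 17 stood apart in the Schwann cell sum, at 21288 and 22289 CPM, against 7959.7 to 13289.6 CPM in the other 18 libraries. Because whole utricles were sequenced, fewer cells of a type and less RNA per cell cannot be told apart. The labels do not state that each library is a different mouse, so the p-values measure the spread between libraries.

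The targets of the pathway are recognised through RBPJ, which binds the letters GTGGGAA. These letters, read on both strands, were searched in the window from 250 bases before to 50 bases after the start of each gene in RefSeq (GRCm38.p6), in which 8 of the 10 genes had an entry. They were found in 3 of the 9 windows of these 8 genes, those of *Hes5*, *Hey2* and *Lfng*. Of the windows of all genes, 2097 of 32851 held them (6.38%). *Hes1* and *Hey1* had no entry and were not searched. These 3 windows are shown as the ones among the 8 genes with an entry that hold the letters. Those of *Hes5* and *Hey2* belong to the pair of genes with the most libraries at 0. In *Hes5* (chr4:154960673-154960972, plus strand) the matches begin 226 and 83 bases before the start, and in *Lfng* (chr5:140607091-140607390, plus strand) 109 bases before it. In *Hey2* (chr10:30842734-30843033, minus strand) they begin 207 and 4 bases before it, and the second runs across the start. Each sequence runs 5′ to 3′ on the strand of the gene, and the capitals mark GTGGGAA or its reverse complement TTCCCAC. A match describes the sequence and not a bound site.
Hes5: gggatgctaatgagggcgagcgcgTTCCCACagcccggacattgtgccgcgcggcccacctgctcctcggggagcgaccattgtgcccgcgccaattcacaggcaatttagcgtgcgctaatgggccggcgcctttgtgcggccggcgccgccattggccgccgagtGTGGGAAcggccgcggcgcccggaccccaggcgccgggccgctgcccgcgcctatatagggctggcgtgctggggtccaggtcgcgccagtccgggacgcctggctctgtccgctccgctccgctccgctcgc
Hey2: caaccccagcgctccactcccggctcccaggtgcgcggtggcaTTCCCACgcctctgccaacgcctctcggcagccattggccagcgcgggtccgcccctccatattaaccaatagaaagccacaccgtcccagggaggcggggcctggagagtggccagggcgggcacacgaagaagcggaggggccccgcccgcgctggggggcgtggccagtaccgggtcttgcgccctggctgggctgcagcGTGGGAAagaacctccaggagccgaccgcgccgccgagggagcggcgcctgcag
Lfng: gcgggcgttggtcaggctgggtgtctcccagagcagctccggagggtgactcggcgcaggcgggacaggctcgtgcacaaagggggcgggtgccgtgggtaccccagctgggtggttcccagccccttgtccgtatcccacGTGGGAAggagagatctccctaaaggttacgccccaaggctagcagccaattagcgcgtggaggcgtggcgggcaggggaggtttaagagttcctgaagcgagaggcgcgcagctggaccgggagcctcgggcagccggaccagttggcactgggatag

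None of the 10 genes differed between the groups past the threshold of 0.05 on p-values adjusted over all genes tested (quasi-likelihood test of edgeR, Benjamini-Hochberg). *Hes5* had no count and was not tested, and *Hey2* had too few counts for a test in the OVX + E2 comparison. In the sham + v comparison 0 of 9 tested genes passed, where 0.0145% of all 13825 genes did. The OVX + E2 comparison likewise gave 0 of 8, against 0.0584% of 13695, and the OVX + RAL comparison 0 of 9, against 0.0286% of 14002. Even at an unadjusted p of 0.05 the number was 0 in each comparison, although 12.5%, 13.9% and 12.1% of all genes fell under it. Over all 4 groups in 1 test, 0 of 9 passed the adjusted threshold (background 0.141%) and 0 the unadjusted one (background 16.3%). With DESeq2, with limma and under every other setting tried, 0 of the genes passed the adjusted threshold. In no comparison were the CPM of the 5 libraries of one group all above or all below those of the OVX + v group for any of these genes, which held for 0.499% of all genes with sham + v, 0.832% with OVX + E2 and 0.578% with OVX + RAL.

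*Sox2* encodes the transcription factor that specifies the sensory patch and that supporting cells continue to express. The gene has 1 exon and lies at chr3:34704554-34706610 (GRCm39, plus strand), and the positions of the genes that follow are on the same build. Its CPM in libraries 1 to 5 of the sham + v group were 12.7, 57.2, 95.4, 0 and 0, and in libraries 6 to 10 of the OVX + v group 114, 54.6, 24.9, 31.2 and 43.2. Those of the OVX + E2 group, libraries 11 to 15, were 28.5, 60.4, 87.4, 0 and 33.7, and those of the OVX + RAL group, libraries 16 to 20, were 2.57, 2.15, 39.4, 8.92 and 46.6. All 5 OVX + v libraries were above 20 CPM, whereas each of the other groups had at least 1 library under 3 CPM, and the ranges overlapped. The mean was 33.1 ± 42.1 CPM (SD, n = 5) in sham + v, 53.6 ± 35.6 in OVX + v, 42.0 ± 33.2 in OVX + E2 and 19.9 ± 21.4 in OVX + RAL. Relative to OVX + v, the log2 difference was -0.70 (SE 0.97, adjusted p = 1.00) for sham + v and -0.35 (SE 1.11, adjusted p = 1.00) for OVX + E2. The sham + v value lay between -1.61 (without sham + v library 3) and -0.22 (without OVX + v library 6) when 1 library was left out, and the difference of the mean log2(CPM + 1) was -2.32 (p = 0.183, exact permutation test, two-sided, unadjusted). For OVX + RAL it was -1.42 (SE 0.97, adjusted p = 0.825), with a 95% interval from -3.33 to 0.48. The lowest OVX + RAL values were those of libraries 16 and 17, which also had the high Schwann cell sums. Without both, the difference was -0.76 (adjusted p = 1.00). The part of the Schwann cell RNA in the result was not tested.

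*Prox1*, a homeobox gene expressed by supporting cells, lies at chr1:189850232-189902911 (minus strand). Its CPM were 40.4, 22.0, 78.2, 16.2 and 127 in the sham + v group and 14.95, 43.3, 13.04, 108 and 18.8 in the OVX + v group. They were 107, 61.2, 0, 38.3 and 30.9 in the OVX + E2 group and 24.7, 27.5, 14.7, 56.1 and 72.1 in the OVX + RAL group. Low and high libraries occurred in each group, such as 16.2 and 127 CPM in sham + v or 14.7 and 72.1 CPM in OVX + RAL, and the group means of 56.9 ± 46.3, 39.6 ± 40.1, 47.6 ± 40.0 and 39.0 ± 24.1 CPM (SD, n = 5, in the same order) lay within 1 SD of one another. Against OVX + v the log2 difference was 0.52 (SE 0.90, adjusted p = 1.00) for sham + v, 0.26 (SE 1.18, adjusted p = 1.00) for OVX + E2 and -0.023 (SE 0.89, adjusted p = 1.00) for OVX + RAL. *Prox1* is also a gene of lymphatic endothelium, and the list of 5 genes of that tissue summed to 30.8 to 177 CPM in sham + v, 58.4 to 211 CPM in OVX + v, 14.03 to 275 CPM in OVX + E2 and 45.8 to 188 CPM in OVX + RAL. Most of the sum was *Pdpn*, detected in all 20 libraries at a mean of 104 CPM, while *Lyve1* was detected in 4, *Flt4* in 2, *Ccl21a* in 2 and *Mmrn1* in 1. The part of lymphatic RNA in the *Prox1* values was not tested.

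*Jag1* encodes the Notch ligand that supporting cells present. It lies at chr2:136923376-136958564 (minus strand). In the sham + v group its CPM were 3.90, 9.97, 44.4, 50.9 and 47.8, and in the OVX + v group 24.3, 40.2, 13.04, 24.8 and 22.3. OVX + E2 libraries had 7.30, 35.5, 0, 43.6 and 0, and OVX + RAL libraries 0, 2.69, 43.5, 0 and 0.961. The OVX + v libraries lay close together, between 13.04 and 40.2 CPM, while 4 of the 5 OVX + RAL libraries were under 3 CPM and library 18 stood at 43.5 CPM, above every OVX + v library. Group means were 31.4 ± 22.5, 24.9 ± 9.75, 17.3 ± 20.8 and 9.42 ± 19.1 CPM (SD, n = 5), in the order sham + v, OVX + v, OVX + E2, OVX + RAL. The difference from OVX + v was -1.40 (SE 1.62, adjusted p = 1.00) for the OVX + RAL group. A two-sided exact permutation test on log2(CPM + 1), over all 252 groupings of the 5 and 5 libraries, gave a difference of -2.95 with p = 0.0476, unadjusted, where the smallest p this design allows is 0.00794. It was 1 of 2 among 27 such tests of these genes with p under 0.05. Leaving out library 18 moved the fitted difference to -4.67, with an adjusted p of 0.533. Without libraries 16 and 17, which were at 0 and 2.69 CPM and had the high Schwann cell sums, it was -0.75 (adjusted p = 1.00). For sham + v the fitted difference was 0.33 (SE 1.31, adjusted p = 1.00), and for OVX + E2 -0.53 (SE 1.81, adjusted p = 1.00).

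*Notch1* encodes a receptor of the pathway and lies at chr2:26347915-26406675 (minus strand). Its CPM were 101, 56.7, 105, 57.6 and 71.6 in the sham + v group and 15.6, 104, 57.3, 63.9 and 145 in the OVX + v group. They were 33.2, 5.29, 60.1, 32.1 and 161 in the OVX + E2 group and 0, 37.7, 108, 73.4 and 62.9 in the OVX + RAL group. The sham + v libraries were the most even, all between 56.7 and 105 CPM, and the other groups covered that range. Means of 78.3 ± 23.2, 77.0 ± 49.1, 58.2 ± 60.4 and 56.4 ± 40.4 CPM (SD, n = 5) were found in the 4 groups. The sham + v difference of 0.025 (SE 0.64, adjusted p = 1.00) was among the smallest fitted for these genes, next to that of *Prox1* in the OVX + RAL comparison. For OVX + E2 the difference was -0.40 (SE 0.88, adjusted p = 1.00), and for OVX + RAL -0.45 (SE 0.65, adjusted p = 1.00).

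*Notch2*, a second receptor, lies at chr3:97920843-98057677 (plus strand). Sham + v libraries gave 113, 47.2, 65.8, 108 and 1.99 CPM, and OVX + v libraries 58.6, 60.2, 133, 151 and 137 CPM. Those of the OVX + E2 group gave 166, 26.4, 30.5, 0 and 11.9 CPM, and those of the OVX + RAL group 48.3, 75.4, 18.2, 65.1 and 162 CPM. In the OVX + E2 group 4 of 5 libraries were at 30.5 CPM or lower, below all 5 OVX + v libraries, but library 11, at 166 CPM, was the highest of all 20. The means were 67.4 ± 46.1, 108 ± 44.9, 46.9 ± 67.6 and 73.9 ± 54.0 CPM (SD, n = 5). The OVX + E2 difference was -1.20 (SE 0.80, adjusted p = 0.717), with a 95% interval from -2.77 to 0.37, and it was the lowest p of the list of 57 Notch pathway genes among those with a negative sign in that comparison. Without library 11 it was -2.64, with an adjusted p of 0.482. For sham + v the difference was -0.68 (SE 0.60, adjusted p = 1.00), and for OVX + RAL -0.55 (SE 0.52, adjusted p = 1.00).

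*Lfng* encodes lunatic fringe, a glycosyltransferase that modifies Notch receptors and so tunes which ligand they respond to. It lies at chr5:140593075-140601300 (plus strand). The values were 13.1, 51.4, 32.6, 0 and 54.4 CPM in the sham + v group and 43.0, 55.8, 65.8, 57.0 and 14.6 CPM in the OVX + v group. OVX + E2 libraries had 50.4, 7.55, 15.2, 0 and 61.0 CPM, and OVX + RAL libraries 15.4, 1.62, 41.7, 11.02 and 32.7 CPM. In the OVX + v group 4 of 5 libraries were at or above 43.0 CPM, which 2 sham + v libraries, 2 OVX + E2 libraries and 0 OVX + RAL libraries reached. Its means were 30.3 ± 23.7, 47.2 ± 19.95, 26.8 ± 27.2 and 20.5 ± 16.4 CPM (SD, n = 5), and the gap of 26.7 CPM between the highest and the lowest group was larger than the SD of either. The tests gave -0.64 (SE 1.05, adjusted p = 1.00) for sham + v, -0.81 (SE 1.32, adjusted p = 1.00) for OVX + E2 and -1.20 (SE 1.01, adjusted p = 1.00) for OVX + RAL.

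*Hes1*, a repressor switched on by Notch, was the only one of the 10 genes with counts in all 20 libraries. It lies at chr16:29883202-29886614 (plus strand). Its CPM were 43.3, 51.4, 73.5, 20.7 and 49.1 in the sham + v libraries and 118, 105, 35.7, 74.3 and 9.06 in the OVX + v libraries. In the OVX + E2 libraries they were 7.30, 122, 145, 115 and 53.3, and in the OVX + RAL libraries 43.7, 41.5, 6.46, 51.4 and 60.0. The 3 highest OVX + E2 libraries were at 115 CPM or higher, a level that 1 OVX + v library and no library of the other groups reached, while OVX + E2 library 11 was at 7.30 CPM. Means were 47.6 ± 18.9, 68.4 ± 45.9, 88.6 ± 56.7 and 40.6 ± 20.4 CPM (SD, n = 5). The log2 difference from OVX + v was -0.52 (SE 0.79, adjusted p = 1.00) for sham + v, 0.37 (SE 0.79, adjusted p = 1.00) for OVX + E2 and -0.75 (SE 0.72, adjusted p = 1.00) for OVX + RAL.

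*Hes5*, a Notch target used as a marker of active signaling in immature supporting cells, had 0 counts in all 20 libraries, a total of 33478857 counts. A count of 0 allows a level of up to 0.0896 CPM over all libraries together, for counting error only, since reads were counted without molecular identifiers. The gene lies at chr4:155045380-155046828 (plus strand), and the end of its transcript, where this kit primes, is at the same base in the count table and in the GENCODE vM39 annotation.

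*Hey1*, a repressor of the same class, lies at chr3:8728419-8732316 (minus strand). The sham + v libraries had 21.9, 0, 19.6, 0.559 and 19.2 CPM and the OVX + v libraries 52.9, 25.7, 0, 17.3 and 28.6 CPM. The OVX + E2 libraries had 88.9, 4.53, 48.1, 0 and 23.1 CPM and the OVX + RAL libraries 10.8, 33.9, 1.17, 0 and 8.17 CPM. Every group had 1 library at 0, and the highest was OVX + E2 library 11. Means of 12.3 ± 10.98, 24.9 ± 19.2, 32.9 ± 36.6 and 10.8 ± 13.7 CPM (SD, n = 5) gave differences of -1.02 (SE 1.71, adjusted p = 1.00) for sham + v, 0.40 (SE 1.52, adjusted p = 1.00) for OVX + E2 and -1.20 (SE 1.57, adjusted p = 1.00) for OVX + RAL. In GENCODE vM39 the transcript ends 1463 bases beyond the end given in the count table that the counting used.

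*Hey2*, at chr10:30708355-30718797 (minus strand), was seldom detected outside the OVX + RAL group. Its counts were 0, 2, 0, 0 and 0 in the sham + v libraries, 0, 0, 0, 0 and 8 in the OVX + v libraries and 0 in all 5 OVX + E2 libraries. The OVX + RAL libraries held 25, 58, 11, 0 and 31 counts, or 12.9, 31.2, 6.46, 0 and 14.9 CPM. It thus reached 3 counts in 4 of 5 OVX + RAL libraries and in 1 of the 15 others, OVX + v library 10, at 5.57 CPM. Libraries 16 and 17, with the high Schwann cell sums, held 83 of the 125 counts of the OVX + RAL group. The OVX + RAL mean was 13.1 ± 11.7 CPM (SD, n = 5), against 1.11 ± 2.49 CPM in the OVX + v group. The fitted difference was 3.49 (SE 2.65, adjusted p = 0.943), with a 95% interval from -1.73 to 8.71, and the exact permutation test (two-sided, log2(CPM + 1), unadjusted) gave a difference of 2.60 with p = 0.0476. Without libraries 16 and 17 the fitted difference was 2.61 (adjusted p = 1.00). Over the 4 groups the p was 0.0512 before and 0.309 after adjustment (edgeR). In both comparisons *Hey2* passed the filter on low counts through the OVX + RAL group, in which it was high, so that these p-values support no difference. The adjusted p of this comparison over the 4 groups lay between 0.197 and 1.00 under the other settings, and without OVX + v library 10 the OVX + RAL difference was 7.59, a value fitted against a group at 0, with an adjusted p of 0.572. *Hey2* is also expressed by arterial endothelium. The 12 blood endothelial genes summed to 139.9 to 609 CPM in the OVX + RAL libraries and to 321 to 401 CPM in the OVX + v libraries. In the OVX + RAL comparison 8 of them were higher and 4 lower, and 0 passed the adjusted threshold. Of the defining markers, *Kdr* was detected in 20, *Cdh5* in 11 and *Pecam1* in 9 of 20 libraries. The part of endothelial RNA in the *Hey2* values was not tested.

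**Figure D1:**
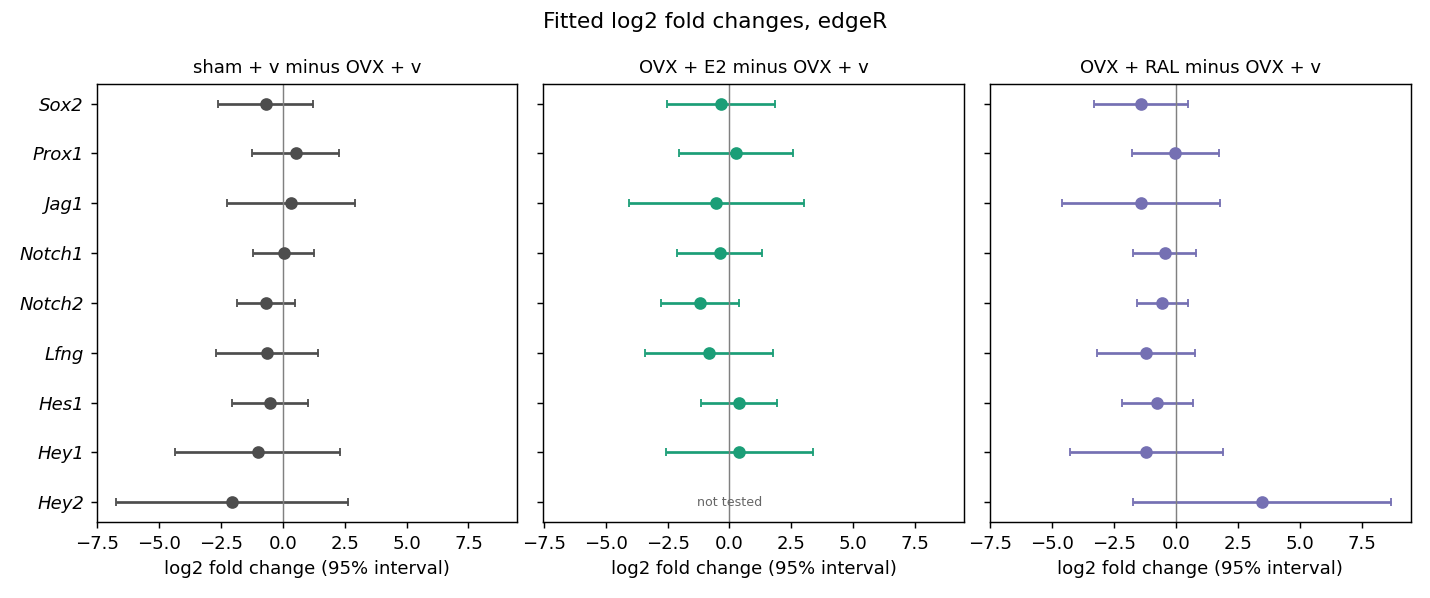
Fitted log2 fold change of each gene against the OVX + v group (horizontal axis, common to the 3 panels) with its 95% interval, from edgeR on 5 and 5 libraries. Every interval includes 0, and the intervals are widest for *Hey2*, *Hey1* and *Jag1*.

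The fitted differences had a negative sign for 6 of 9 genes in the sham + v comparison (median -0.64), for 5 of 8 in the OVX + E2 comparison (median -0.38) and for 8 of 9 in the OVX + RAL comparison (median -0.75). Over all genes tested the medians were -0.02, -0.06 and -0.03, and 7057 of 13825, 7196 of 13695 and 7243 of 14002 genes had a negative sign. These comparisons share the OVX + v libraries, in which *Sox2*, *Notch2* and *Lfng* had their highest group mean. The summed CPM of the 10 genes was 357 ± 98.9 for sham + v, 445 ± 69.8 for OVX + v, 360.4 ± 94.9 for OVX + E2 and 284 ± 109.8 for OVX + RAL (mean ± SD, n = 5), with ranges that overlapped. With TMM normalization 7 genes had a negative sign in the sham + v comparison, *Notch1* being the one that turned, and the numbers in the others stayed at 5 and 8. With limma on log2(CPM + 1), where low values weigh more, the numbers were 7 of 9, 7 of 8 and 7 of 9, and the medians -0.34, -0.92 and -1.11. OVX + RAL libraries 16 and 17 had the lowest sums of the 10 genes in their group, 158 and 254 CPM. Without both, *Notch1* (0.082) and *Prox1* (0.26) turned positive in the OVX + RAL comparison. In that setting 6 of the 9 differences moved by over 1.5 times.

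Ordering the 4 groups by mean CPM placed the OVX + RAL group lowest for 7 of the 9 genes with counts. The exceptions were *Notch2* and *Hey2*, whose lowest group was OVX + E2. Of the 27 steps between neighbours in these orders, 26 were smaller than 1 SD of the group with the larger SD, the exception being the step from OVX + RAL to OVX + v for *Hey2*. For 7 of the 9 genes even the highest and the lowest group differed by less than 1 SD, and the others were *Hey2* and *Lfng*. The place of OVX + RAL depended on libraries 16 and 17, which had the high Schwann cell sums. Without both, that group stayed lowest for *Sox2*, *Jag1*, *Hes1* and *Hey1*, but not for *Notch1*, *Prox1* and *Lfng*. Its fitted log2 difference from OVX + v was then 0.082 for *Notch1* and 0.26 for *Prox1*.

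**Figure D2:**
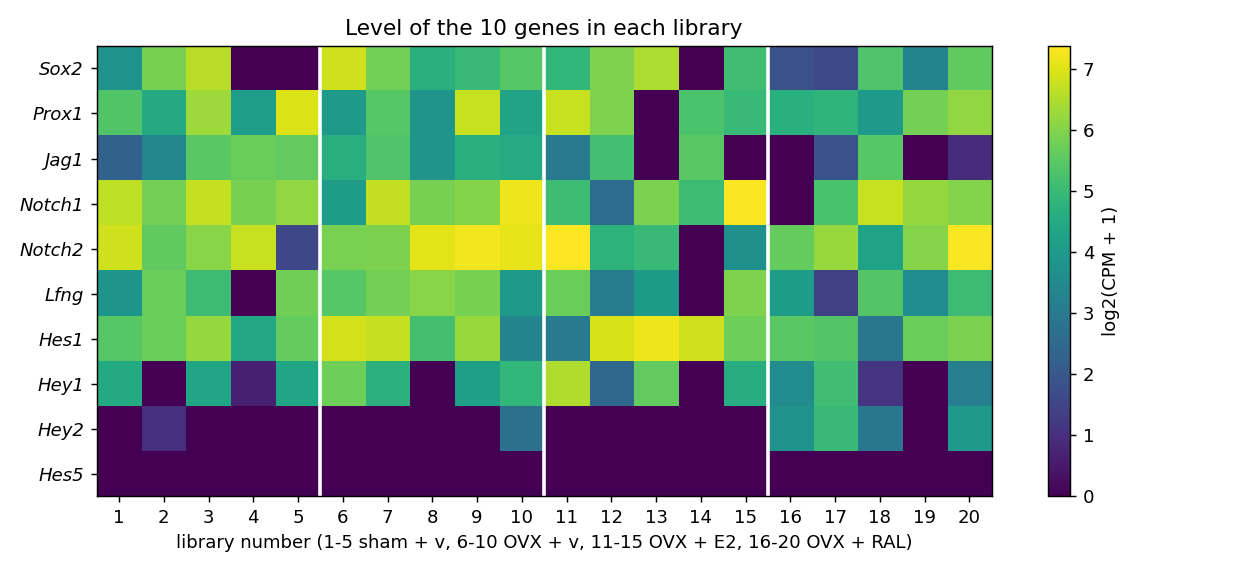
Level of the 10 genes as log2(CPM + 1) (colour scale) in each of the 20 libraries (columns, white lines between groups). Dark cells are 0, *Hes5* is dark throughout, and OVX + E2 library 14 has 5 dark cells besides that of *Hes5*.

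The number of genes detected varied between libraries of the same group. Between 4 and 9 of the 10 genes reached 3 counts in a library, with 5 to 8 for sham + v, 7 to 9 for OVX + v, 4 to 8 for OVX + E2 and 6 to 9 for OVX + RAL. Leaving *Hes5* aside, 30 of 180 values were 0, and 8 of the 9 genes had at least 1 library at 0. The library with the fewest of these genes, OVX + E2 library 14, was also the one with the smallest total count (1123053) and the fewest genes with a count (7427). The part of depth in the zeros was not tested. *Notch1*, with a mean of 67.5 CPM, had its only 0 in OVX + RAL library 16, which held 1944199 counts.

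The coefficient of variation over the 20 libraries was between 63.6% (*Notch1*) and 112% (*Hey1*) for the 8 genes with a mean between 15 and 80 CPM, and 218% for *Hey2*, whose mean was 3.60 CPM. The median of the 8 was 76.1%, and that of all 6014 genes in the same range of means was 91.4% (quartiles 74.1% and 112%). Within groups, after removal of the group means, it was between 63.7% (*Hes1*) and 111% (*Hey1*) for the 8 genes and 166% for *Hey2*. For *Hes1* the coefficient over all libraries was 66.4%, and for *Sox2* it was 90.4% over all and 91.3% within groups. The variance of the counts was 28.0 to 79.2 times their mean for the 9 genes, and the median ratio of the 6014 genes was 45.0. Read counts near 3′ ends depend on how each end is primed, so an order of genes by mean CPM is one of read counts and not of transcript levels.

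**Figure D3:**
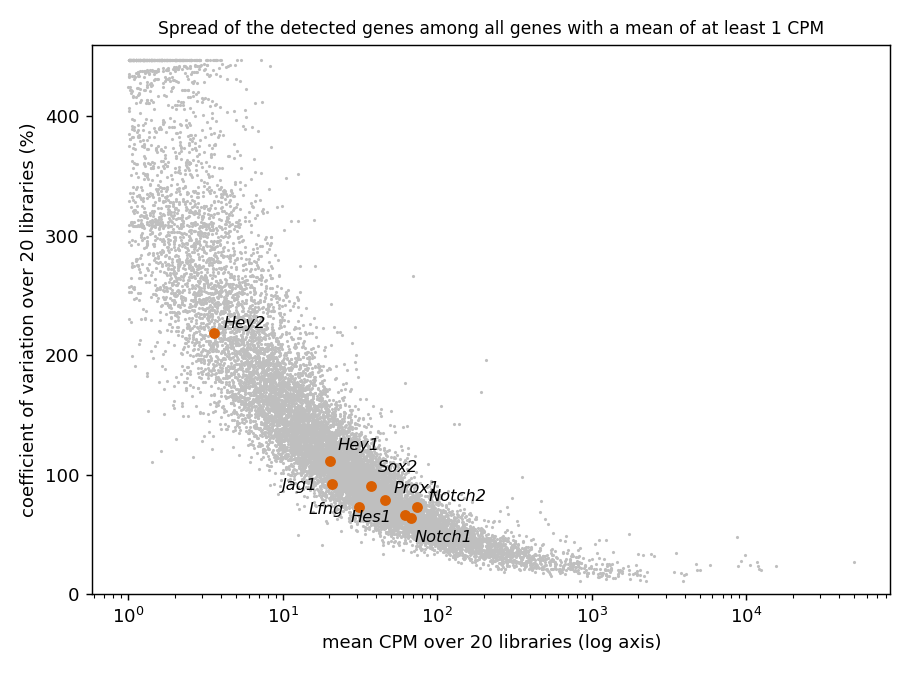
Mean CPM over 20 libraries (horizontal, log axis) against the coefficient of variation (vertical, %) for all genes with a mean of at least 1 CPM (grey) and the 9 detected genes (orange). The orange points lie within the cloud of genes of the same level, from *Notch1* at 63.6% to *Hey2* at 218%.

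Of the 57 genes in a wider list of the Notch pathway, 33 were detected in at least 15 of the 20 libraries, and *Hes2*, *Hes3* and *Hes5* had no count. The 4 with the highest mean outside the genes above were *Aph1a* (276 CPM) and *Psenen* (173 CPM), subunits of γ-secretase, and *Cir1* (181 CPM) and *Spen* (153 CPM), which repress RBPJ targets. No gene of the list passed the adjusted threshold in any comparison. Of 50 tested in the sham + v comparison, 22 had a positive and 28 a negative sign (median -0.03), in the OVX + E2 comparison 30 and 20 of 50 (median 0.14), and in the OVX + RAL comparison 24 and 29 of 53 (median -0.10). Under an unadjusted p of 0.05 there were 1 of 50, 1 of 50 and 4 of 53 genes, smaller shares than the 12.5%, 13.9% and 12.1% of all genes. In these comparisons 1, 1 and 4 genes were at 0 in a whole group, and setting them to their bounds, which keep their sign, left the medians at the same values. Summed over the list, the CPM were 2512 ± 364 for sham + v, 2475 ± 170 for OVX + v, 2768 ± 199 for OVX + E2 and 2187 ± 165 for OVX + RAL (SD, n = 5). The OVX + E2 and OVX + RAL means lay more than 1 SD above and below that of OVX + v, whose libraries (2211 to 2663 CPM) overlapped both groups, while those of OVX + E2 (2583 to 3052 CPM) were all above those of OVX + RAL (2006 to 2391 CPM). These sums are a description and were not tested.

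Among the ligands, *Dll4*, best known from endothelium, had 73 counts in 2 of the 5 OVX + v libraries and 72 in 2 OVX + E2 libraries, but 0 in all sham + v and OVX + RAL libraries. Taking 3 counts per library as the limit of a 0, its mean was at least 5.14-fold lower in the sham + v group and at least 5.49-fold lower in the OVX + RAL group, although 3 of the 5 OVX + v libraries had no count either. *Dll1*, a ligand presented by nascent hair cells, had 66 counts in 1 OVX + E2 library and 0 in the OVX + v group, which makes the mean at least 6.51-fold higher, and *Dlk1* had 60 counts in 2 OVX + RAL libraries (at least 3.73-fold higher). *Dtx1*, the remaining gene under an unadjusted p of 0.05 besides *Adam10*, had 35 counts in 1 library. Each of these 4 genes passed the filter on low counts through the group in which it was high, so that its p-value supports no difference, and each rested on 1 or 2 libraries. *Adam10*, which encodes the protease of the first cut of the receptor, was more widely detected, at 30.2 ± 26.7 CPM in the OVX + RAL group and 86.9 ± 42.2 CPM in the OVX + v group (SD, n = 5), a log2 difference of -1.52 (SE 0.70, unadjusted p = 0.0304, adjusted p = 0.402). *Adam10* and *Dtx1* were chosen after their values were seen. For the ubiquitin ligase *Neurl1b*, the gene with the lowest p among those with a positive sign in the sham + v comparison, the means were 40.2 ± 53.8 and 10.3 ± 11.96 CPM (SD, n = 5; adjusted p = 0.935).

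A list of 22 supporting cell genes, which includes 5 of those above, covers junction, matrix and transporter genes. Of these, 19 were detected in at least 15 libraries and 11 in all 20. The 4 highest were *Otog* (mean 2508 CPM), the gap junction genes *Gjb6* (676 CPM) and *Gjb2* (592 CPM), and the cell cycle inhibitor *Cdkn1b* (578 CPM). None of the 21 tested passed the adjusted threshold in any comparison. Signs were positive for 10 and negative for 11 genes in the sham + v comparison (median -0.16) and in the OVX + E2 comparison (median -0.12), and positive for 5 and negative for 16 in the OVX + RAL comparison (median -0.18). The summed CPM of the list was 6536 ± 1359 for sham + v, 6583 ± 694 for OVX + v, 6579.9 ± 1187 for OVX + E2 and 6253 ± 739 for OVX + RAL (SD, n = 5), differences smaller than the SD.

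*Gjb2* was at 489 ± 129 CPM in the sham + v group and 716 ± 213 CPM in the OVX + v group, a log2 difference of -0.55 (SE 0.25, unadjusted p = 0.0303, adjusted p = 0.363). *Slc1a3*, the glutamate transporter GLAST of supporting cells, was at 397 ± 219 CPM in the OVX + RAL group and 609 ± 72.2 CPM in the OVX + v group, a log2 difference of -0.62 (SE 0.27, unadjusted p = 0.0233, adjusted p = 0.402). They were the only genes of this list with an unadjusted p under 0.05, 1 of 21 in the sham + v, 0 of 21 in the OVX + E2 and 1 of 21 in the OVX + RAL comparison, where 12.5%, 13.9% and 12.1% of all genes were under it. *Lgr6*, a marker of a subset of supporting cells, reached 3 counts in 4 of 5 OVX + v and 1 of 5 OVX + E2 libraries (adjusted p = 0.439). *Otog*, the gene with the lowest p among those with a positive sign in the sham + v comparison, had a log2 difference of 0.26 (adjusted p = 0.601).

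The values of the genes across libraries were also compared with one another. Over the 20 libraries, the 21 pairs of the 7 genes detected in at least 15 of them had a median Spearman rho of 0.06 on log2(CPM + 1), and 14 were above 0. The highest was 0.49, for *Sox2* and *Hes1*, and the lowest -0.37, for *Notch2* and its pathway's target *Hes1*. The order depended on the measure, as Pearson's r was 0.11 for *Sox2* and *Hes1* and highest, at 0.63, for *Sox2* and *Lfng*, whose rho was 0.28. Among 7262 genes with a mean of at least 20 CPM, those with the values most like *Sox2* were *Arhgef2* and *Nsa2* (rho 0.74 for both), and like *Jag1* they were *Rbl2* (0.77) and *Slc4a7* (0.72). For *Notch1* these were *Ddx46* (0.78) and *Cc2d2a* (0.76), for *Notch2* *Mrpl28* and *Emilin2* (0.78 for both), and for *Hes1* *D5Ertd579e* (0.77) and *Ccdc47* (0.74). *Tigd2* (0.74) and *Pak4* (0.72) were most like *Lfng*, and *Utp11* (0.79) and *Psd3* (0.75) most like *Prox1*. These values describe 20 libraries that differ in group and depth, and each is one of the 2 highest among 7262 genes. Pearson's r of the same 14 pairs lay between 0.30 (*Notch1* and *Ddx46*) and 0.86 (*Lfng* and *Tigd2*). After removal of the group means the 14 values of rho lay between 0.48 (*Hes1* and *D5Ertd579e*) and 0.90 (*Prox1* and *Utp11*), with 0.57 for *Notch1* and *Ddx46*.

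Neighbouring transcripts limit some of the values. In GENCODE vM39, exons of lncRNAs on the opposite strand overlap exons of *Sox2*, *Jag1*, *Notch1*, *Hes5*, *Hey1* and *Prox1*, and *Sox2* lies within the lncRNA *Sox2ot* on the same strand, without shared exons. *Gm42820*, on the same strand as *Notch2*, overlaps its exons and had 0 counts in the table, and a strand setting would not separate the reads of that pair. The strand setting of the counting is not given in the sources used here, so that reads of these genes and of their antisense partners may not have been separated. At the 3′ ends, the annotation extends *Hes1* by 29, *Hey2* by 5 and *Jag1* by 3 bases beyond the count table, and the other genes except *Hey1* by 0.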

How the data were processed

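RNA of the mouse utricle was sequenced with a 3′ mRNA kit. As the study describes, the authors trimmed the reads, mapped them to GRCm39 with default settings and counted them per gene in CLC Genomics Workbench. The version, the strand setting and the handling of reads matching several genes are not given in the sources used here. The deposited total counts are raw counts of reads per gene, and the deposited CPM, TPM, RPKM, fold changes and p-values were not used. Groups and library numbers 1 to 20 were taken from the labels. One deposited file holds 3 tables, of which the first was used. Of 40 pairs of libraries within groups, 0 had identical counts.

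To obtain CPM, counts were divided by their library's total (1123053 to 2081747 counts). Genes with at least 10 counts over the fitted libraries were tested with glmQLFit and glmQLFTest of edgeR 4.0.16 in R 4.3.3, in a fit of the 10 libraries compared, using the plain total as library size. The 4 groups were also tested together in a fit of 20 libraries. Benjamini-Hochberg adjustment covered all genes tested, and 0.05 was the threshold. Standard errors were obtained by dividing the log2 difference by the root of its F statistic. The members and lists were chosen with earlier results of these data known. Named were all 10 genes, genes of the lists past the threshold, the 4 highest other genes of the Notch pathway and supporting cell lists, the gene with the lowest p of each sign in each of these 2 lists per comparison, the 2 highest genes of each other marker list and the 2 genes most like each member in at least 15 libraries. Some genes that this rule names are not reported here. Alternatives were TMM, DESeq2 1.42.0, no filter, the default filter of edgeR, limma 3.58.1 with a pseudocount of 1 or 0.1 CPM, robust glmQLFit, all libraries in 1 fit, exact permutation tests and each library left out. The pipeline was run on simulated data with large planted changes, which does not show whether it finds differences as small as most of those fitted here. The outcome is not reported here. Promoter windows are those of RefSeq for GRCm38.p6, and *Hes1* and *Hey1* had no entry. Other values and the figures were made in Python 3.11.15 (pandas 2.3.3, numpy 2.4.6, scipy 1.17.1, matplotlib 3.10.9).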

Additional observations from a re-analysis of the deposited data

Results flagged for a closer look

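6 values lay far from the other 4 libraries of their group, by Dixon's criterion for groups of 5, out of 79 groups looked at. Chance gives about 1 in 20 for values with a normal distribution, which CPM with many values at 0 do not have. *Jag1* stood at 43.5 CPM in OVX + RAL library 18, where the other libraries of the group had at most 2.69 CPM. *Notch2* stood at 166 CPM in OVX + E2 library 11, against at most 30.5 CPM in the rest of the group. The *Hey2* values of 1.05 CPM in sham + v library 2 (2 counts) and 5.57 CPM in OVX + v library 10 (8 counts) were the only ones above 0 in their groups. With the other 4 libraries at 0, the criterion flags any value above 0, so these flags say nothing of its size. The sham + v value was also below the 3 counts taken as detected. The summed dark cell genes were low, at 1219.5 CPM, in OVX + RAL library 16, and the summed macrophage genes were high, at 369.7 CPM, in sham + v library 1.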

How the results depend on the processing

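The number of genes past the adjusted threshold was 0 for the 10 genes, the Notch pathway list and the supporting cell list in each comparison and under each alternative run. No paired analysis was possible because the labels number the libraries from 1 to 20 and the groups share no number. Of 242 alternative values of the log2 differences, 225 kept their sign and side of the threshold, 15 turned in sign, and 2 passed an unadjusted p of 0.05 by the exact permutation test (*Jag1* -2.95 and *Hey2* 2.60, OVX + RAL). With TMM, *Notch1* in sham + v was -0.022. With limma on log2(CPM + 1), limma on log2(CPM + 0.1) and the permutation test, *Jag1* in sham + v was -0.10, -0.14 and -0.10, *Hey1* in OVX + E2 -0.081, -0.11 and -0.081, *Prox1* in OVX + E2 -0.27, -0.90 and -0.27, and *Prox1* in OVX + RAL 0.23, 0.25 and 0.23. The cause was not tested. Without OVX + RAL libraries 16 and 17, an alternative chosen after seeing the data, *Notch1* was 0.082 and *Prox1* 0.26 in OVX + RAL. With each library left out in turn, 14 of 258 values turned in sign: *Notch1* in sham + v lay between -0.24 and 0.38, *Prox1* in sham + v between -0.016 and 1.33, *Sox2* in OVX + E2 between -0.80 and 0.13, *Hey1* in OVX + E2 between -0.39 and 0.88, *Prox1* in OVX + E2 between -0.28 and 1.08, and *Prox1* in OVX + RAL between -0.37 and 0.79. Leaving out 1 library moved 24 of the 26 differences by over 1.5 times at least once, turned signs included. Limma on log2(CPM + 1) and the permutation test each did so for 17, limma on log2(CPM + 0.1) for 18, TMM for 3 and DESeq2 for 2 of 26. Leaving out OVX + RAL libraries 16 and 17 moved 6 of the 9 OVX + RAL differences by as much, so that the sizes are uncertain. TMM moved the median log2 difference of all genes in OVX + E2 from -0.060 to -0.17. The numbers of all genes past the threshold, 2, 8, 4 and 21 for sham + v, OVX + E2, OVX + RAL and the 4 groups, lay between 0 and 12, 1 and 38, 0 and 5, and 0 and 26 with other methods, and between 1 and 10, 6 and 17, 3 and 11, and 17 and 28 with 1 library left out. With 5 libraries a group and a coefficient of variation of 63.6% or more, the 95% intervals of the log2 differences were wide, and differences smaller than these could not be shown.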
